A study of Rattus norvegicus with 18 samples.

Results

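The mRNA expression of 3 genes that make or move prostaglandins was followed through femoral fracture healing in young, adult and older rats. The genes were Pla2g2a, a secreted phospholipase A2, Ptgs2, the inducible cyclooxygenase COX-2, and Slco2a1, the prostaglandin transporter. They were chosen by name, and every probe set annotated to these symbols was taken, which gave 5 of the 8799 probe sets on the Affymetrix Rat U34A array. Of these 5, 4 reached a signal of 200 on at least 3 arrays and were tested among 4669 probe sets. The 18 arrays were hybridised with RNA from femurs of intact female Sprague-Dawley (SD) rats that were young (6 weeks old at fracture), adult (26 weeks) or older (52 weeks). At each age there was 1 array without fracture and 1 array at 3 days and at 1, 2, 4 and 6 weeks after a closed mid-shaft fracture held by an intramedullary rod. Each array carried the pooled RNA of 2 rats, so no single rat was measured. The controls were unfractured rats of each age, picked at random from the animals assigned to the operation.

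Prostaglandins are short-lived lipid signals. A phospholipase A2 frees arachidonic acid from membrane phospholipids, a cyclooxygenase turns it into prostaglandin H2, and terminal synthases convert this into prostaglandin E2, prostacyclin, thromboxane and related products that act on receptors of nearby cells. The transporter encoded by Slco2a1 takes prostaglandins up from the outside of the cell and so brings them to the enzymes that break them down. In bone, COX-2 and prostaglandin E2 are known for their part in inflammation after injury and in the formation of new bone.

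The sampled tissue was the middle of the femur, with callus, cortical bone and marrow. Signals are in arbitrary units after scaling of each array by the authors to an average of 500. Array medians lay between 137.2 and 182.6, and 37.2% to 43.3% of the signals on an array were below 100, the level to which lower signals were raised before log2 values were taken. A list of bone-forming cell markers, of which 6 of 9 genes were on the array, gave summed signals of 54538 to 102675 after fracture and 19222 to 55692 without fracture, so the labelled tissue carried its defining markers. Skeletal muscle markers (10 of 12 genes on the array) were also present on every array, with sums of 48330 to 203141 after fracture and 107982 to 225680 without fracture. On the array of young rats at 6 weeks the 5′ to 3′ signal ratio of Gapdh was 0.257, against 0.650 to 0.913 on the other 17 arrays.

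The 3 genes took different courses. At 3 days, 3 of the 4 tested probe sets were up-regulated relative to no fracture, where 24.5% of all probe sets tested were up-regulated, and 1 of the 4 was down-regulated, where 19.7% of all were down-regulated. Ptgs2 was up-regulated at 3 days alone, Slco2a1 from 3 days to 2 weeks, and Pla2g2a was down-regulated at all 5 times. The differences between times were tested with limma on log2 signals with age in the model and the Benjamini-Hochberg adjustment over all 4669 probe sets. The 3 arrays of a time came from rats of 3 ages, so the error of each comparison is the spread between arrays of different ages and not between rats of 1 age. All comparisons with no fracture used the same 3 control arrays. Where such small groups of arrays are said below not to overlap, the share of all probe sets without overlap was not counted.

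**Figure D1:**
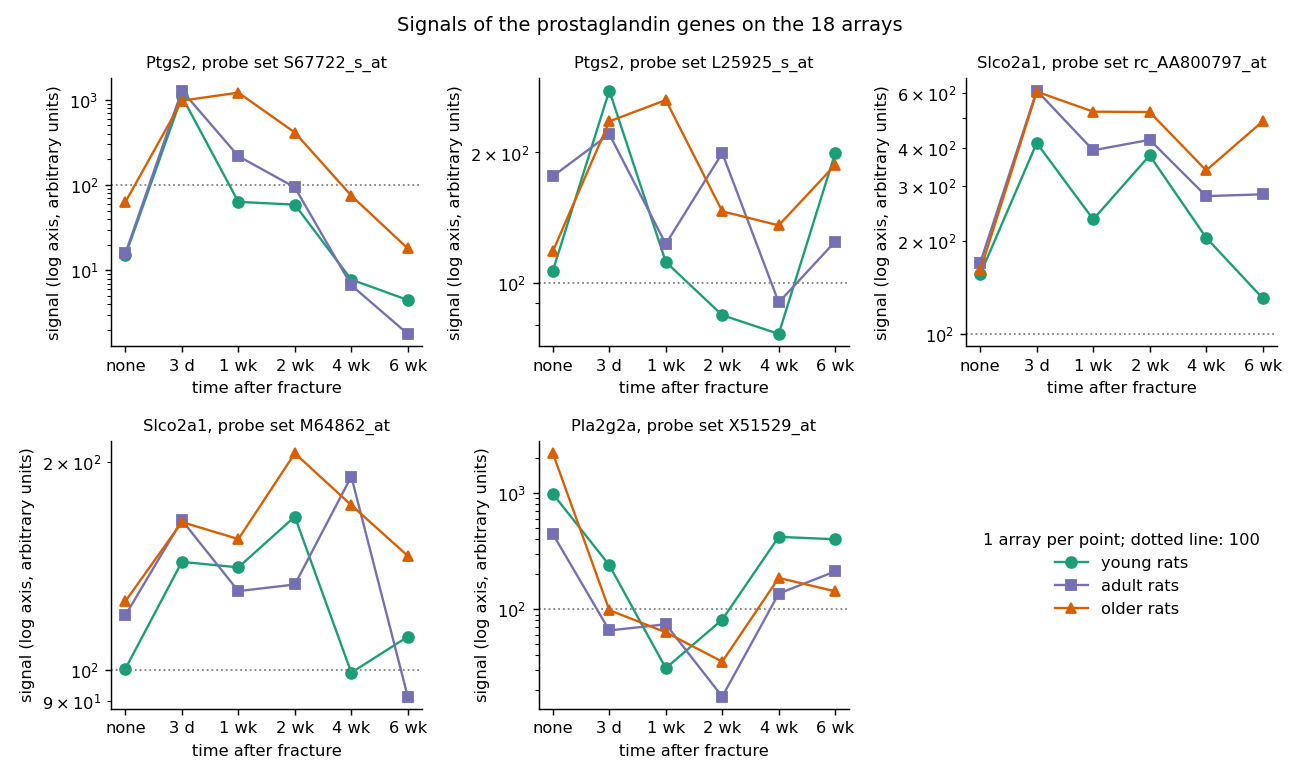
Signal of each probe set (vertical log axes, arbitrary units, a different range in each panel) on the 18 arrays by time after fracture, with 1 point per array and a line per age. The dotted line marks 100, and Ptgs2 S67722_s_at stands at 977.5 to 1282.3 at 3 days, while Pla2g2a X51529_at is below its no-fracture signals at every later time.

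Pla2g2a was measured by 1 probe set, X51529_at. The gene lies on chromosome 5 at 156359725 to 156362302 of the GRCr8 assembly. Without fracture its signals were 982.8 in young, 444.1 in adult and 2195.7 in older rats. At 3 days they were 239.3, 65.7 and 98.2 in the same order of ages, at 1 week 31.1, 74.2 and 63.3, and at 2 weeks 81.4, 17.7 and 35.4. Every array of the first 2 weeks was thus below every array without fracture, and 8 of these 9 arrays were below 100. At 4 weeks the signals were 419.3, 136.3 and 186.1, and at 6 weeks 400.0, 211.7 and 142.5. These later arrays were all above 100, and all remained below the lowest array without fracture.

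The log2 change of Pla2g2a against no fracture was -2.88 ± 0.46 (SE, adjusted p = 0.000193) at 3 days, which is at least 7.37-fold lower because signals below 100 were set to 100. At 1 week and at 2 weeks it was -3.30 ± 0.46 (adjusted p = 0.000195 and 0.000267), at least 9.86-fold lower. At 4 weeks it was -2.16 ± 0.46 (adjusted p = 0.00970, 4.48-fold lower) and at 6 weeks -2.10 ± 0.46 (adjusted p = 0.0195, 4.30-fold lower). Only 1.43% of all probe sets were down-regulated at 4 weeks and 1.2% at 6 weeks, and Pla2g2a was the 1 member among them at both times. The signals at 4 and 6 weeks were higher than at 3 days by 0.72 ± 0.46 and 0.78 ± 0.46 on the log2 scale, which did not pass the test (adjusted p = 0.262 and 0.193). Without the older no-fracture array, the highest of all 18, the log2 change was -2.17 at 3 days, -2.59 at 1 and at 2 weeks, -1.45 at 4 weeks and -1.39 at 6 weeks, and the call at 6 weeks was lost. The call at 6 weeks was also lost without the older 6 weeks array (-1.71), and that at 4 weeks without the adult (-1.99) or the older (-2.04) array of 4 weeks.

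**Figure D2:**
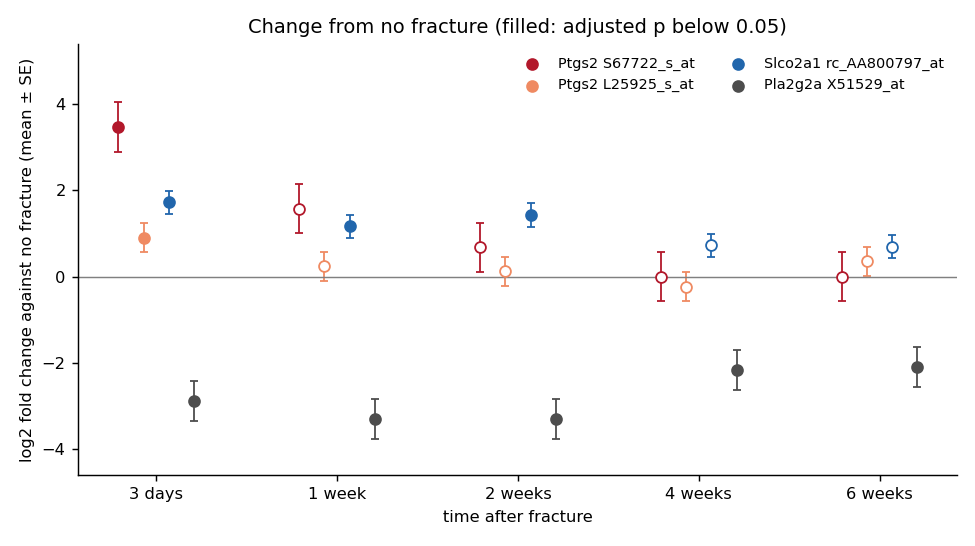
Log2 fold change of each tested probe set against no fracture at the 5 times after fracture (fitted mean ± SE, 3 arrays per time), with filled points where the adjusted p was below 0.05. Ptgs2 S67722_s_at stands at 3.47 at 3 days and at 0 at 4 and 6 weeks, where all its arrays were below 100 as they were without fracture, Slco2a1 is filled up to 2 weeks, and Pla2g2a is filled at every time.

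The tested neutrophil, erythroid and platelet markers were lower than without fracture in the first 2 weeks, as Pla2g2a was. Of the list of platelet and megakaryocyte markers, 3 of 7 genes were on the array (Itga2b, Itgb3 and Pf4) and none was at 0 on all arrays of a time. Their summed signal was 5191 to 17820 without fracture, 1764 to 3687 at 3 days, 1328 to 1716 at 1 week, 1109 to 1932 at 2 weeks, 2117 to 4128 at 4 weeks and 2220 to 8715 at 6 weeks. Across the 18 arrays the log2 signal of Pla2g2a had a Pearson r of 0.963 with the log2 of this sum, 0.836 with that of the neutrophil markers and 0.709 with that of the erythroid markers. These values describe arrays that share the same time course, with 8 of the 18 arrays of Pla2g2a set to the same 100. All 6 neutrophil probe sets and all 5 erythroid probe sets tested were down-regulated at 3 days, 1 week and 2 weeks. Over all probe sets the share down-regulated was 19.7%, 10.5% and 8.27% at these times, 1.43% at 4 weeks and 1.2% at 6 weeks. At 4 weeks 3 neutrophil and no erythroid probe sets were called, and at 6 weeks none of either. Of the platelet and megakaryocyte markers, both tested probe sets were down-regulated at 3 days and at 1, 2 and 4 weeks, and 1 of the 2 at 6 weeks. Itgb3 was too dim to be tested. Its signals were 144.0, 112.7 and 257.1 in young, adult and older rats without fracture. At 1 week they were 210.7, 160.0 and 141.2, higher in young and adult rats and lower in older rats. Most of the marker sum was Pf4, for example 9629.0 of 11213 in young rats without fracture. The part of these cells in the course of Pla2g2a was not tested, and in tissue RNA fewer cells of a type and less RNA per cell cannot be told apart.

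**Figure D3:**
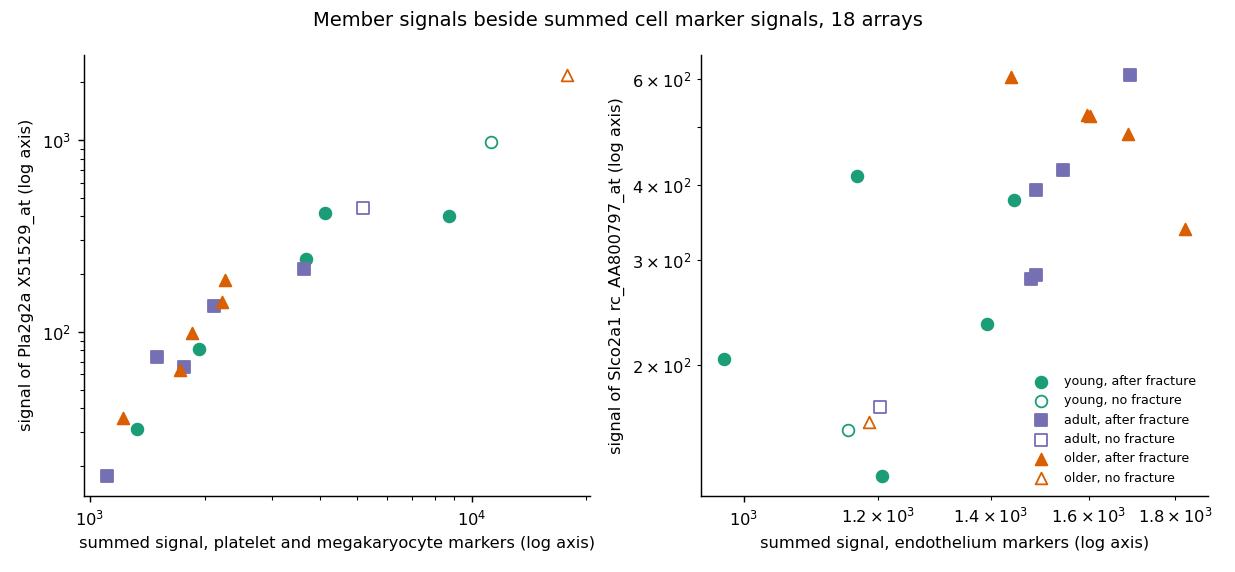
Signal of Pla2g2a against the summed signal of the platelet and megakaryocyte markers (left), and signal of Slco2a1 rc_AA800797_at against that of the endothelial markers (right), all on log axes in arbitrary units, 1 point per array and open points without fracture. On the left the 3 arrays without fracture stand at the upper right (444.1 to 2195.7), and on the right their signals lie between 155.9 and 170.0, with 14 of the 15 arrays after fracture above them.

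The 5 tested probe sets most like Pla2g2a over the 18 arrays belonged to Nrgn (r = 0.974), which encodes the calmodulin-binding protein neurogranin, to Itga2b (0.972), an integrin of platelets, to C3 (0.955), the central complement component, to Pf4 (0.951), a chemokine stored in platelets, and to Mmp8 (0.947), the collagenase of neutrophils. Their courses held the same order of ages without fracture as Pla2g2a. All 5 were picked for likeness over arrays that include these, so the shared order is in part a result of that choice. The signals of Itga2b at 3 days were 322.2 in young, 128.6 in adult and 198.8 in older rats, against 1439.9, 779.9 and 2956.1 without fracture. The signals of Pf4 without fracture were 9629.0, 4298.5 and 14607.1. At 6 weeks Pf4 stood at 1831.2 in older rats, against 7696.4 in young rats. Nrgn, C3 and Mmp8 were below 100 on 10 or 11 of the 18 arrays, and those arrays were set to the same value.

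The promoter of Pla2g2a is shown because Pla2g2a had the lowest log2 changes of the 3 genes. It is the RefSeq sequence of GRCr8, chr5:156359475-156359774, plus strand, from 250 bases before to 50 bases after the start of the gene, read 5′ to 3′. Capitals mark matches to GGGNNNNNCC, a loose form of the motif of the factor NF-kB, at 190, 121 and 92 bases before the start.
Pla2g2a promoter: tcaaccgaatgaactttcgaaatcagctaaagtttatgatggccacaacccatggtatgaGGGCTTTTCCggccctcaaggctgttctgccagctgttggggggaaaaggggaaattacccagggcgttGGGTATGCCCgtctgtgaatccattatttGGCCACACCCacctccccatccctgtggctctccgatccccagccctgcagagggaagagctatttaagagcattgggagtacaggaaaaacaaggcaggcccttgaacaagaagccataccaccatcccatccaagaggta
Both strands were searched. The same motif is held by 47.3% of the 33469 promoters in the table, and none of the other motifs sought here (TATAAA of the TATA box, TGACG of the cAMP response element, TTGCNNAA of C/EBP, CACGTG of the E-box, TGANTCA of AP-1 and GGGCGG of the GC box) was found in this window. A match describes the letters and is no measured binding site.

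Ptgs2 was measured by 2 probe sets, S67722_s_at and L25925_s_at, and is on chromosome 13 at 64714063 to 64722320. For S67722_s_at the signals at 3 days were 1095.5 in young, 1282.3 in adult and 977.5 in older rats, against 15, 15.8 and 63.3 without fracture. The groups were far apart, and at 3 days the 3 ages differed little. At 1 week the signals were 63.6, 218.3 and 1213.2, and at 2 weeks 59.0, 94.2 and 413.7 in young, adult and older rats. The ages thus spread out, with the older rats highest at both times. At 4 weeks the signals were 7.8, 6.7 and 75.3 and at 6 weeks 4.5, 1.8 and 18.1, all below 100.

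With S67722_s_at, Ptgs2 was up-regulated by 3.47 ± 0.57 on the log2 scale at 3 days (adjusted p = 0.000258), at least 11.1-fold. At 1 week the difference was 1.58 ± 0.57 (adjusted p = 0.0559) and at 2 weeks 0.68 ± 0.57 (adjusted p = 0.437), and neither passed the test. No fold is given for 4 and 6 weeks, where the arrays of both groups were below 100. The outcome at 1 week depended on single arrays. The difference was 2.29 without the young 1 week array and 2.36 without all young rats, and it then passed the test. It also passed, at an unchanged 1.58, without the older 2 weeks array. Without the older 1 week array the difference fell to 0.68, the lowest value with 1 array left out. With a floor of 20 in place of 100, both 1 week (3.13) and 2 weeks (2.17) passed.

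The second probe set, L25925_s_at, varied less. Its signals at 3 days were 277.8, 220.5 and 235.9 in young, adult and older rats, against 106.7, 176.3 and 118.3 without fracture, and these groups did not overlap. The log2 change was 0.90 ± 0.34 (adjusted p = 0.0405, 1.87-fold), and it lay between -0.24 and 0.36 at the 4 later times, with no call. The call at 3 days was fragile. It was lost when any of 4 arrays was left out, namely the young (log2 change 0.82) or older (0.71) array without fracture and the young (0.69) or adult (0.97) array of 3 days. Over the 18 arrays the r between the 2 probe sets was 0.715. Both highest arrays of the older rats were those of 3 days and 1 week on either probe set. The suffix s of both names marks probe sets whose probes can match more than 1 transcript, and levels were not compared between probe sets.

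Setting later times against 3 days gave the decline of Ptgs2. At 1 week none of the 4 member probe sets passed the test against 3 days (3.17% of all did), and 1 of the 4 had an unadjusted p below 0.05 in limma. This was S67722_s_at, with -1.90 ± 0.57 (adjusted p = 0.0768). Without the older 1 week array the difference was -2.79 and passed. At 2 weeks S67722_s_at was lower than at 3 days by a log2 change of -2.79 ± 0.57 (adjusted p = 0.0123, at least 6.92-fold), as were 3.21% of all probe sets. That call was lost without the adult array of 3 days (-2.58) or of 2 weeks (-2.47). At 4 and 6 weeks the change was -3.47 ± 0.57 (adjusted p = 0.001 and 0.000661), at least 11.1-fold. L25925_s_at was lower at 4 weeks by -1.14 ± 0.34 (adjusted p = 0.0242). That last call did not hold when the young or adult array of 3 days, or any of the 3 arrays of 4 weeks, was left out, with values from -1.21 to -0.93.

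Macrophage markers were measured beside Ptgs2 because macrophages are a known source of COX-2. Of the list, 4 of 11 genes were on the array, and 3 of the 4 probe sets tested were up-regulated and 1 down-regulated at 3 days. Of all probe sets, 24.5% were up-regulated and 19.7% down-regulated at that time. Their summed signal was 10761 to 12660 at 3 days, against 8422 to 19226 without fracture, so the groups overlapped. The sum is not weighted, so the brightest genes count most in it. No listed gene was at 0 on all arrays of a time. The r of S67722_s_at with this sum was 0.255 over the 18 arrays.

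The probe set most like Ptgs2 S67722_s_at was that of Il1rl1 (r = 0.983), which encodes the receptor for interleukin 33. Its signals at 3 days were 335.3, 515.9 and 441.6 in young, adult and older rats, against 8.9, 55.1 and 20 without fracture. At 1 week they were 124.9, 122.9 and 556.0 and at 2 weeks 57.6, 72.0 and 222.4, highest in the older rats. Il1rl1 was picked for its likeness to Ptgs2 on these same arrays, so a shared order of ages is in part a result of that choice. Its older minus young difference at 1 and 2 weeks was 1.65 ± 0.35 in limma and did not pass (adjusted p = 0.0746). Il1rl1 was below 100 on 11 arrays and Ptgs2 S67722_s_at on 12. The next in order were Slc2a1 (0.929), the glucose transporter GLUT1, Agtr1a (0.928), a receptor for angiotensin II, Ppp1r36 (0.924), a subunit of protein phosphatase 1, and Atp2a2 (0.915), a calcium pump of the endoplasmic reticulum. Atp2a2 was never below 100, with signals of 2520.0, 2822.1 and 2537.1 at 3 days against 1388.9, 1423.3 and 1609.1 without fracture. For L25925_s_at the likeness was lower, with r of 0.769 for Ptk2 (focal adhesion kinase), 0.766 for Cxcl13 (a chemokine of B cells), 0.749 for Pitpnb (a phosphatidylinositol transfer protein), 0.727 for Atp2a2 and 0.726 for Tomm20 (a mitochondrial import receptor).

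The Ptgs2 promoter is printed because Ptgs2 had the highest log2 change of the 3 genes. It spans chr13:64713813-64714112 of GRCr8, plus strand, over the same window around the gene's start. Capitals mark, from the 5′ end, GGGCGG (GC box, 238 bases before the start), the match to TTGCNNAA on the opposite strand (C/EBP, 140 bases), GGGNNNNNCC (NF-kB, 91 bases) and CACGTG (E-box, 55 bases). No 2 of these overlap.
Ptgs2 promoter: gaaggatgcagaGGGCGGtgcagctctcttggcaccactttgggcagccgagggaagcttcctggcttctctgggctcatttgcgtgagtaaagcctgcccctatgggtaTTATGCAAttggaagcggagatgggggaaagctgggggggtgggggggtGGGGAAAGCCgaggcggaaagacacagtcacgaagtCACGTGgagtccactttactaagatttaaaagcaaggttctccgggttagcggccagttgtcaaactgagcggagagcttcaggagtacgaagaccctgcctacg
TTGCNNAA is held by 10.6% of all promoters in the table, CACGTG by 6.42%, GGGCGG by 33.1% and GGGNNNNNCC by 47.3%. The letters TATAAA, held by 14.2% of promoters, TGACG, held by 21.2%, and TGANTCA, held by 7.33%, were not found in this window.

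Slco2a1 was measured by 2 probe sets, rc_AA800797_at and M64862_at. The gene is on chromosome 8 at 112467739 to 112551923. With rc_AA800797_at the signals at 3 days were 413.8 in young, 610.9 in adult and 606.1 in older rats, against 155.9, 170.0 and 160.4 without fracture. At 1 week they were 234.4, 392.0 and 522.3 and at 2 weeks 377.2, 423.6 and 520.9. All 9 of these arrays were above the highest array without fracture, and without fracture the 3 ages were close together (162.1 ± 7.20, SD, n = 3). At 4 weeks the signals were 204.6, 278.7 and 337.5, still above the controls, and at 6 weeks 130.5, 282.4 and 485.7, where the young array was below them.

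Slco2a1 was up-regulated by 1.72 ± 0.27 on the log2 scale at 3 days (adjusted p = 0.000171, 3.30-fold), by 1.17 ± 0.27 at 1 week (adjusted p = 0.00502, 2.24-fold) and by 1.43 ± 0.27 at 2 weeks (adjusted p = 0.00170, 2.70-fold). It was the 1 member probe set up-regulated at 1 week and at 2 weeks, where 14.3% and 12.8% of all probe sets were up-regulated. Pla2g2a was the 1 down-regulated, beside 10.5% and 8.27% of all. At 4 weeks the difference was 0.73 ± 0.27 (adjusted p = 0.130) and at 6 weeks 0.69 ± 0.27 (adjusted p = 0.159), so no member was up-regulated at these times in limma, where 5.05% and 3.19% of all probe sets were. Slco2a1 had an unadjusted p below 0.05 at both. Without the young 6 weeks array, the array with the low Gapdh ratio, the difference at 6 weeks was 1.03 and passed the test.

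Relative to 3 days, the level of Slco2a1 was not called at 1 week (-0.56 ± 0.27, adjusted p = 0.215) or at 2 weeks (-0.29 ± 0.27, adjusted p = 0.526). It was lower at 4 weeks by -1.0 ± 0.27 (adjusted p = 0.0159) and at 6 weeks by -1.03 ± 0.27 (adjusted p = 0.00893). Against 3 days, 3 of the 4 member probe sets were lower at 4 weeks and 2 at 6 weeks, where 11.9% and 18.7% of all probe sets were lower. The call for Slco2a1 at 4 weeks was lost without the young (-0.95) or adult (-0.93) array of 3 days or the adult (-0.98) or older (-0.98) array of 4 weeks, and that at 6 weeks without the young 6 weeks array (-0.70).

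The dimmer probe set, M64862_at, reached 200 on 1 array and was not among those tested. Its signals at 3 days were 143.2, 164.5 and 163.5 in young, adult and older rats, against 100.3, 119.9 and 125.6 without fracture. At 1 week they were 140.6, 129.9 and 154.5 and at 2 weeks 166.5, 132.8 and 205.6, all above the controls. The groups overlapped at 4 weeks (99.0, 190.3 and 173.0) and at 6 weeks (111.6, 91.4 and 146.1). Its r with rc_AA800797_at was 0.668. In a fit of all probe sets without the filter its log2 change was 0.45 at 3 days (adjusted p = 0.134), 0.30 at 1 week (adjusted p = 0.416) and 0.53 at 2 weeks (adjusted p = 0.132), and none passed.

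Markers of endothelial cells and fibroblasts were measured beside Slco2a1. Endothelial cells are a known site of this transporter. Of 12 endothelial markers 6 genes were on the array, and of their 7 tested probe sets 3 were up-regulated at 3 days, 1 at 1 week, 2 at 2 weeks and 0 later, beside 24.5%, 14.3% and 12.8% of all probe sets at the first 3 times. Their summed signal was 1167 to 1691 at 3 days, against 1152 to 1204.5 without fracture, and these ranges overlapped. At 1 week it was 1392 to 1596 and at 2 weeks 1445 to 1603, both above the range without fracture. At 4 weeks it was 974 to 1823, which overlapped, and at 6 weeks 1207.4 to 1688, just above that range. The summed signal of fibroblast and fibrous matrix markers (9 of 11 genes on the array) was 73848 to 92966 at 3 days, against 9584 to 37788 without fracture, with 18 of 20 tested probe sets up-regulated. The r of rc_AA800797_at over the 18 arrays was 0.703 with the endothelial sum and 0.773 with the fibroblast sum. The part of either cell type in the change of Slco2a1 was not tested.

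The 5 probe sets most like Slco2a1 rc_AA800797_at were those of Ndufa4l2 (r = 0.957), a mitochondrial protein, Hip1 (0.941), a clathrin adaptor, Anxa4 (0.929) and Anxa5 (0.918), calcium-dependent phospholipid-binding annexins, and Rnase4 (0.927), a secreted ribonuclease. Ndufa4l2 signals at 6 weeks were 76.0 in young, 257.8 in adult and 523.4 in older rats, the same order as for Slco2a1. Rnase4 signals at 6 weeks were 144.2, 183.8 and 490.9, again in that order. Both genes were picked for their likeness on these same arrays, so a shared order is in part a result of that choice. Neither passed between older and young rats after fracture in limma (adjusted p = 0.0643 for Ndufa4l2 and 0.0523 for Rnase4). The r between rc_AA800797_at and Pla2g2a was -0.793, and that between rc_AA800797_at and Ptgs2 S67722_s_at 0.682, each over the same 18 arrays.

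The promoter of Slco2a1, chr8:112467489-112467788 of GRCr8, plus strand, completes the 3 sequences. Capitals mark the GC box, 160 bases before the start of the gene, and the letters TATAAA, 72 bases before it.
Slco2a1 promoter: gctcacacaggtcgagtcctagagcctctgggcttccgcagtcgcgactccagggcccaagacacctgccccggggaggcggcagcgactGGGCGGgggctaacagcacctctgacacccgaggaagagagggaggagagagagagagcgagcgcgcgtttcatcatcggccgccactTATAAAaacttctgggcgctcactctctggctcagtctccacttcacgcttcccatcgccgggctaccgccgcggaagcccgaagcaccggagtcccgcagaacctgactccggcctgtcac
None of the other motifs was found in this window. No motif was found in all 3 promoters: the GC box stood in those of Ptgs2 and Slco2a1 and GGGNNNNNCC in those of Ptgs2 and Pla2g2a.

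The study asked which genes respond to fracture differently in older rats. After fracture, Slco2a1 rc_AA800797_at was higher in older than in young rats at 5 of 5 times, and the order older, adult, young from high to low held at 4 of 5 times, the exception being 3 days. Of all 4669 probe sets tested, 360 (7.71%) were higher in older than in young rats at all 5 times. The order of all 3 ages held at all 5 times for 8, and Slco2a1 was not among them. How many held that order at 4 of 5 times was not counted. The mean signal after fracture was 272.1 ± 119.5 in young, 397.5 ± 135.7 in adult and 494.5 ± 98.3 in older rats (SD, n = 5 arrays of different times each). M64862_at was also higher in older than in young rats at 5 of 5 times, but the order of all 3 ages held at 0 of 5. It was too dim to be among the probe sets tested, so the share above is not its background.

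Over the 15 arrays after fracture, with time in the model, Slco2a1 was higher in older than in young rats by 0.96 ± 0.19 on the log2 scale (1.94-fold). Its adjusted p was 0.0523, just outside the threshold, as the probe set ranked 15 by p of 4669. In this comparison 0.15% of all probe sets passed (7 in all) and none of the 4 member probe sets did in limma, with 3 of the 4 at an unadjusted p below 0.05. The outcome turned on single arrays. Slco2a1 passed without the young (1.01), adult (0.96) or older (1.05) array of 3 days. With 1 array left out at a time the difference ran from 0.78 to 1.07. Without the young 6 weeks array, the array with the low Gapdh ratio, no probe set passed in this comparison. The difference was 0.35 ± 0.19 between older and adult rats (adjusted p = 0.271) and 0.61 ± 0.19 between adult and young rats (adjusted p = 0.222). The endothelial marker sum followed the same order of ages as Slco2a1 at each of the 5 times after fracture, for example 1823 in older, 1478 in adult and 974 in young rats at 4 weeks. None of its 7 tested probe sets passed between older and young rats after fracture, with a median log2 difference of 0.50, beside 0.04 over all probe sets tested. The fibroblast marker sum was higher in older than in young rats at 4 of the 5 times, all but 3 days. The part of either cell type in the age difference of Slco2a1 was not tested. None of the members passed in the comparisons of adult rats with the other ages, where 3.73% and 0% of all probe sets did. At an unadjusted p below 0.05 there were 0 members between older and adult rats and 2, Slco2a1 and Pla2g2a, between adult and young rats.

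**Figure D4:**
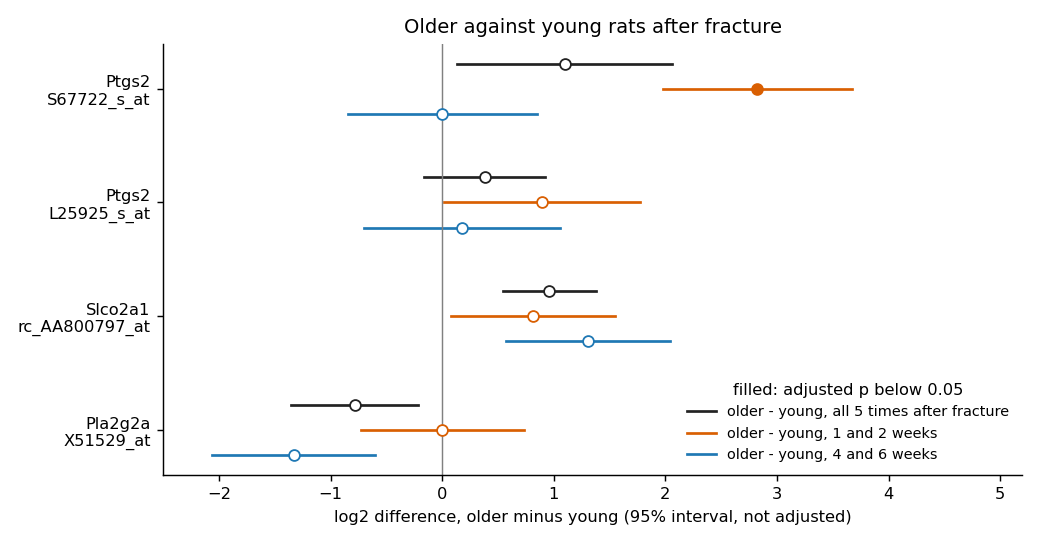
Log2 difference, older minus young rats, of each tested probe set over all 5 times after fracture, over 1 and 2 weeks and over 4 and 6 weeks (points, with 95% intervals not adjusted for multiple testing). The one filled point, with an adjusted p below 0.05, is Ptgs2 S67722_s_at at 1 and 2 weeks (2.82), and points at 0 are pairs of groups whose arrays were all below 100.

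Ptgs2 S67722_s_at differed between older and young rats at 1 and 2 weeks. The signals were 1213.2 and 413.7 in older rats, against 63.6 and 59.0 in young rats, with 218.3 and 94.2 in adult rats. The groups of 2 arrays each did not overlap, and the share of all probe sets without such overlap was not counted. In the fit of the 12 arrays of 1, 2, 4 and 6 weeks the difference was 2.82 ± 0.38 on the log2 scale (adjusted p = 0.0255, at least 7.08-fold). Of all probe sets, 0.514% passed (24 in all), and 0.364% passed with older rats higher. This call rested on 4 residual degrees of freedom and was not stable. It remained only when the young 2 weeks (3.49), adult 1 week or adult 2 weeks array was left out, and it was lost without any of the other 9, among them the older 1 week (2.33), older 2 weeks (3.32) and young 1 week (2.16) arrays. L25925_s_at differed in the same direction by 0.89 ± 0.39 and did not pass (adjusted p = 0.364), with 264.2 and 146.3 in older rats, against 111.8 and 84.3 in young rats. Over all 5 times the older minus young difference was 1.10 ± 0.45 for S67722_s_at (adjusted p = 0.184) and 0.38 ± 0.25 for L25925_s_at (adjusted p = 0.413).

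At 1 and 2 weeks Slco2a1 was 0.81 ± 0.33 higher in older than in young rats on the log2 scale, which did not pass (adjusted p = 0.326). All Pla2g2a arrays of these times were below 100 at both ages. At 4 and 6 weeks, none of the member probe sets passed in limma, where 2.81% of all did, and 2 had an unadjusted p below 0.05. These were Slco2a1, higher in older than in young rats by 1.31 ± 0.33 (adjusted p = 0.0607), and Pla2g2a, with a difference of -1.33 ± 0.33 (adjusted p = 0.0574). Both passed when the young 1 week or the young 2 weeks array was left out, with the difference itself unchanged. For Slco2a1 the difference was 0.85 without the young 6 weeks array, whose Gapdh ratio of 0.257 stood apart, and only 1 of all probe sets was then called. On the same arrays 7 of 20 fibroblast, 4 of 6 cartilage and 0 of 7 endothelial probe sets passed as higher in older rats, and none of them as lower. The endothelial sum was 1823 and 1688 in older rats, against 974 and 1207 in young rats. The cartilage sum was 12073 and 8501 in older rats, against 2701 and 1223.5 in young rats. The part of these cell types was not tested. The Pla2g2a signals at 4 and 6 weeks were 186.1 and 142.5 in older rats, against 419.3 and 400.0 in young rats, 2 arrays each without overlap. The platelet and megakaryocyte marker sum on the same arrays was 2255 and 2220 in older rats, against 4128 and 8715 in young rats.

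Without fracture the signal of Pla2g2a was 2195.7 in older and 982.8 in young rats, with 1 array each and thus no error. The fall of Pla2g2a after fracture relative to that start was set against age in a fit of all 18 arrays. Its older minus young difference after fracture, less that without fracture, was -1.94 ± 0.63 on the log2 scale (adjusted p = 0.135). For Slco2a1 this quantity was 0.92 ± 0.48 (adjusted p = 0.366), for S67722_s_at 1.10 ± 1.11 (adjusted p = 0.668) and for L25925_s_at 0.23 ± 0.62 (adjusted p = 0.887). None of the 4 passed in limma, beside 2.55% of all probe sets, and 1, Pla2g2a, had an unadjusted p below 0.05.

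The rest of the pathway was taken from 6 lists of 60 genes in all. They covered prostanoid synthesis, phospholipases A2, prostanoid receptors, prostaglandin transport and breakdown, and leukotrienes and other lipoxygenase products. The last list held inducers and other regulators of Ptgs2 with annexin 1. Beside the 3 members, 41 of these genes were on the array with 71 probe sets, of which 38 from 26 genes were tested. Of the 38, 10 were up-regulated and 7 down-regulated at 3 days (44.7%, where 44.2% of all probe sets were called). At 1 week 7 were up-regulated and 7 down-regulated (36.8%, against 24.8% of all), and at 2 weeks again 7 and 7 (36.8%, against 21.1% of all). At 4 weeks 5 were up-regulated and 1 down-regulated (15.8%, against 6.49%), and at 6 weeks 1 and 0 (2.63%, against 4.39%). The median log2 change of the 38 was 0.13 at 3 days, beside 0.01 over all probe sets tested. None of the 38 differed between older and young rats after fracture in the limma fit.

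**Figure D5:**
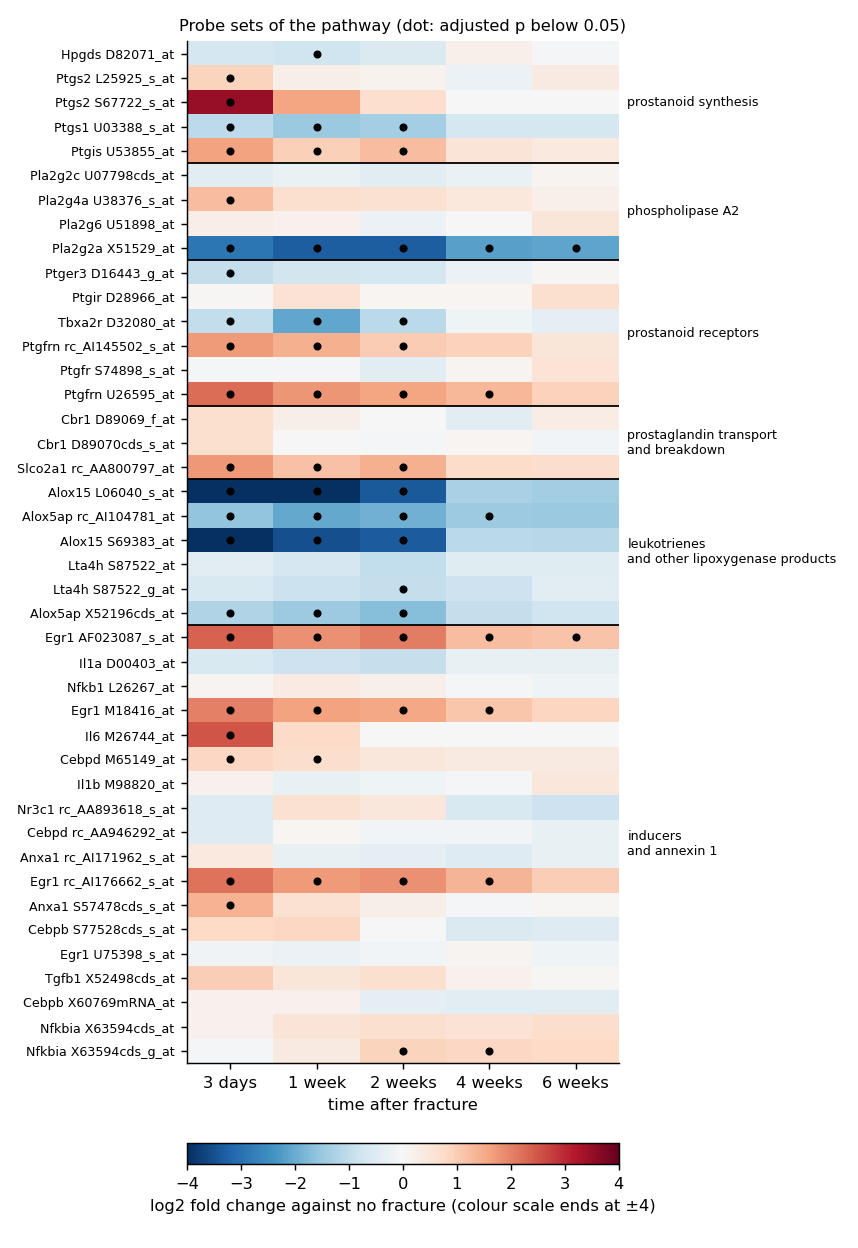
Log2 fold change against no fracture (colour, ending at ±4) of the 42 tested probe sets of the pathway lists, members included, at the 5 times after fracture, with a dot where the adjusted p was below 0.05. Ptgs2 and Ptgis are red and Ptgs1, Pla2g2a, Alox15 and Alox5ap blue at 3 days.

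Among the enzymes of prostanoid synthesis, Ptgs1, the constitutive cyclooxygenase COX-1, ran against Ptgs2. Its mean signal was 453 ± 63.1 at 3 days, against 984 ± 443 without fracture (SD, n = 3 each), and it was down-regulated by a log2 change of -1.04 ± 0.34 at 3 days, -1.47 ± 0.34 at 1 week and -1.37 ± 0.34 at 2 weeks (adjusted p = 0.0230, 0.00537 and 0.0100). Ptgis, the prostacyclin synthase, was up-regulated at the same times by 1.61 ± 0.31, 0.94 ± 0.31 and 1.24 ± 0.31 (adjusted p = 0.000698, 0.0335 and 0.00903), with a mean of 1190 ± 147 at 3 days, against 402 ± 130 without fracture. Hpgds, a prostaglandin D synthase of blood cells, was lower at 1 week, on the probe set that was tested, by -0.81 ± 0.28 (adjusted p = 0.0466). Ptgds and Tbxas1, which make prostaglandin D2 and thromboxane, stayed under 200 on every array and were not tested.

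Of the other phospholipases A2, Pla2g4a, the cytosolic enzyme that prefers arachidonic acid, was up-regulated at 3 days by 1.23 ± 0.28 (adjusted p = 0.00260), with a mean of 403 ± 84.5, against 170.2 ± 23.5 without fracture. Pla2g2a was down-regulated on the same arrays. Pla2g2c and Pla2g6 were not called at any time. Pla2g1b and Pla2g5 and the phospholipase receptor Pla2r1 were too dim to be tested.

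Among receptors and related proteins, Tbxa2r, the thromboxane receptor, was down-regulated at 3 days (-0.99 ± 0.29), 1 week (-2.08 ± 0.29) and 2 weeks (-1.07 ± 0.29), with adjusted p of 0.0119, 0.000195 and 0.0147. Ptger3, a prostaglandin E2 receptor, was lower at 3 days on the 1 of its 3 probe sets that was tested (-0.96 ± 0.29, adjusted p = 0.0129). Ptgfrn, a membrane protein that binds the prostaglandin F receptor and dampens its ligand binding, was up-regulated from 3 days to 4 weeks on U26595_at (2.22 ± 0.28 at 3 days, adjusted p = 3.9e-05, and 1.34 ± 0.28 at 4 weeks, adjusted p = 0.00970) and from 3 days to 2 weeks on its other probe set. The receptors Ptgir and Ptgfr, for prostacyclin and prostaglandin F, were not called. Ptger1, Ptger2 and Ptger4, the other prostaglandin E2 receptors, were too dim to be tested, as was Hpgd, which inactivates prostaglandins once they are inside the cell. Cbr1, a carbonyl reductase that acts on prostaglandin E2, was not called on either of its probe sets.

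In the neighbouring branch of arachidonic acid metabolism, Alox15 and Alox5ap fell with Pla2g2a. Alox15, a lipoxygenase of leukocytes, had a mean of 62.7 ± 83.8 on L06040_s_at at 3 days, against 2843 ± 1946 without fracture, a log2 change of -4.32 ± 0.63 (adjusted p = 9.34e-05), and its second probe set changed by -4.13 ± 0.60 (adjusted p = 9.06e-05). Alox5ap, the partner protein of 5-lipoxygenase, was down-regulated on both probe sets at 3 days (-1.58 ± 0.41 and -1.21 ± 0.37, adjusted p = 0.00586 and 0.0142), at 1 week and at 2 weeks. Lta4h, which makes leukotriene B4, was lower on 1 of its 2 probe sets at 2 weeks alone (-0.96 ± 0.33, adjusted p = 0.0487). The 6 tested probe sets of this list belonged to these 3 genes, 2 each. Of the 6, 4, 4, 5, 1 and 0 were down-regulated at 3 days, 1 week, 2 weeks, 4 weeks and 6 weeks, and none was up-regulated. Of all probe sets, 19.7%, 10.5%, 8.27%, 1.43% and 1.2% were down-regulated at these times. The same arrays carried the lower sums of neutrophil, erythroid and platelet markers.

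Of the list of inducers and other regulators of Ptgs2, Il6, an inflammatory cytokine, was called at 3 days alone, as Ptgs2 was. Its signal on M26744_at averaged 654 ± 372 at 3 days, against 10.5 ± 2.39 without fracture, a log2 change of 2.51 ± 0.40 (adjusted p = 0.000217), and it was not called at the later times. Egr1, an early response transcription factor, was up-regulated on 3 of its 4 probe sets from 3 days to 4 weeks. On AF023087_s_at the log2 change was 2.36 ± 0.24 at 3 days (adjusted p = 1.38e-05) and 1.16 ± 0.24 at 6 weeks (adjusted p = 0.0171), the 1 call among the other pathway probe sets at that time. Cebpd, a C/EBP transcription factor, was up-regulated at 3 days (0.83 ± 0.24, adjusted p = 0.0102) and 1 week on 1 of the 2 tested probe sets. Anxa1, annexin 1, a known inhibitor of phospholipase A2, was up-regulated at 3 days on 1 of 2 probe sets (1.40 ± 0.37, adjusted p = 0.00669). Nfkbia, an inhibitor of NF-kB and not an inducer, was up-regulated on 1 of its 2 probe sets at 2 weeks (0.89 ± 0.22, adjusted p = 0.00934) and at 4 weeks (0.83 ± 0.22, adjusted p = 0.0356). Il1b, Nfkb1, Tgfb1 and Cebpb were not called at any time, and the probe set of Tnf was below 100 on all arrays.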

How the data were processed

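RNA of 2 pooled rats was extracted with TRIzol for each array and hybridised to Affymetrix Rat U34A arrays. The deposited intensity values are signals of Microarray Suite 5.0, which the authors scaled to an average of 500 on each array, and detection calls were not used. Signals below 100 were set to 100 and converted to log2 values. Of 8799 probe sets (59 controls), 4669 that reached a signal of 200 on at least 3 arrays were tested. Symbols came from the platform annotation, which gave 7018 probe sets 1 symbol, 308 several and 1473 none, and were updated through the RefSeq table of the GRCr8 assembly. From a probe set with several symbols none was named.

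Tests used lmFit and eBayes with an intensity trend in limma 3.58.1 (R 4.3.3), two-sided, with Benjamini-Hochberg adjusted p below 0.05 as the threshold. Time effects were fitted on 18 arrays together with age, and age effects on the 15 post-fracture arrays together with time. The contrasts of older and young rats at 1 and 2 weeks, and at 4 and 6 weeks, came from a fit of 12 arrays. Because every age and time had 1 array, p-values rest on how arrays of other ages or times scatter, not on rats of 1 age. The number of arrays limits the precision. The scripts were tested on simulated data. Tables and figures were made with pandas 2.3.3, numpy 2.4.6 and matplotlib 3.10.9 in Python 3.11.15. The alternatives were other floors, filters, normalizations, covariates, arrays and tests, 1 probe set per gene, and arrays left out 1 at a time. The last of these was added for the pathway counts after seeing the data. The methods' t-test named below compared 3 with 3 arrays for times and 5 with 5 for ages. It used the same log2 values and the same adjustment over all probe sets. The paper's own t tests of times pooled 3 replicate arrays of each age and state no adjustment. A call lost here is therefore not the outcome of the paper's test. The named genes were all probe sets of the 3 members, the 5 probe sets most like each by Pearson r over the 18 arrays, and the called pathway probe sets with the largest changes. The genes, lists and rules were chosen with earlier results of these data known. Bone and muscle markers were used to check the tissue, and blood-cell, macrophage, endothelial, fibroblast and cartilage markers were set beside the members. Promoter sequences are those of RefSeq on GRCr8, where all 3 genes matched.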

Additional observations from a re-analysis of the deposited data

Results flagged for a closer look

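One array of a member stood apart from the others of its age. For Ptgs2 S67722_s_at in young rats, the 3 days array had a signal of 1095.5, while the other 4 young arrays after fracture were all below 100 and set to 100, so that the gap to the nearest array took up the whole range of the group (ratio 1.0). The group mixes 5 times, and 15 such groups of member probe set and age were examined, of which chance would single out about 1 in 20.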

How the results depend on the processing

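No called value changed direction. In settings that left out no single array, 518 values for the members kept their direction and side of the threshold, 34 lost a call, 8 gained one and 7 that were not called changed sign. With arrays left out 1 at a time the numbers were 930, 29, 11 and 14. No paired analysis was possible because each group of age and time held 1 array and all 18 arrays carry the same series number, and age was already a term in the fits of time.

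The changes of sign concerned differences that did not pass the test under any of these settings. L25925_s_at stood at -0.23 at 1 week without older rats and 0.053 at 4 weeks without adult rats, at -0.067 for adult minus young with a floor of 200, and at -0.055 and -0.037 for older minus young at 4 and 6 weeks with quantile normalization and with equal medians. Pla2g2a stood at 0.21 for older minus adult with a floor of 20 and at 0.36 with all 18 arrays. With 1 array left out, L25925_s_at ranged over -0.12 to 0.51 at 1 week, -0.17 to 0.40 at 2 weeks, -0.43 to 0.035 at 4 weeks, -0.20 to 0.17 for adult minus young and -0.13 to 0.48 for older minus young at 4 and 6 weeks. S67722_s_at ranged over -0.15 to 0.46 for adult minus young, and Pla2g2a over -0.19 to 0.13 for older minus adult.

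For Ptgs2 S67722_s_at, 1 week against no fracture was called with a floor of 20 (3.13) and without young rats (2.36), and 2 weeks with a floor of 20 (2.17). The 2 weeks against 3 days call was lost without the filter (-2.79), and the older minus young call at 1 and 2 weeks was lost with a floor of 20 (3.53) or 200 (1.82) and without the filter or with one at 500 (both 2.82). For L25925_s_at the 3 days call (0.90) was lost with a floor of 20, without the filter, without age in the model, with only the 6 arrays compared and with the methods' t-test. It was also lost without young (0.66), adult (1.19) or older (0.85) rats. Its 4 weeks against 3 days call was lost with a floor of 200 (-0.28) and without the filter (-1.14).

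For Slco2a1 the 1 week call was lost with the methods' t-test (1.17) and without adult (1.15) or older (0.90) rats, and the 2 weeks call with that test (1.43) and without adult rats (1.49). The 6 weeks difference was called without young rats (1.17), and the older minus young difference after fracture with a filter at 500 (0.96). For Pla2g2a no time was called with the methods' t-test, here on 3 against 3 arrays and with adjustment. The differences were -2.88 at 3 days, -3.30 at 1 and 2 weeks, -2.16 at 4 weeks and -2.10 at 6 weeks. Both later calls were also lost without the filter, with 6 arrays, and without adult (-2.39 and -2.62) or older (-1.47 and -1.18) rats, and that at 6 weeks with a floor of 20. The older minus young difference at 4 and 6 weeks was called with a floor of 200 (-1.03) and with quantile normalization or equal array medians (both -1.57).

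Of the other pathway probe sets, 26 were counted with 1 probe set per gene, against 38. Fewer were tested with a filter at 500 and more without the filter, so the counts below have different totals. At 3 days 5 were up-regulated with 1 probe set per gene and with a filter at 500, against 10. At 1 week these settings gave 3 and 4 (against 7), and at 2 weeks 1 probe set per gene gave 4 (against 7). At 4 weeks 1 probe set per gene gave 3 and no filter 1 (against 5), and none was down-regulated under either, nor under the other floors or a filter at 500 (against 1). At 6 weeks none was up-regulated without the filter and 2 with one at 500 (against 1), and 1 was down-regulated with quantile normalization or equal medians (against 0).

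With arrays left out 1 at a time, S67722_s_at ranged over 3.15 to 3.91 at 3 days and 0.68 to 2.29 at 1 week against no fracture, over -2.79 to -1.18 at 1 week and -3.29 to -2.47 at 2 weeks against 3 days, and over 2.16 to 3.49 for older minus young at 1 and 2 weeks. L25925_s_at ranged over 0.69 to 1.17 at 3 days, and -1.27 to -0.93 at 4 weeks against 3 days. Slco2a1 ranged over 0.37 to 1.03 at 6 weeks, -1.11 to -0.93 at 4 weeks and -1.35 to -0.70 at 6 weeks against 3 days, 0.78 to 1.07 for older minus young after fracture and 0.85 to 1.77 at 4 and 6 weeks. Pla2g2a ranged over -2.62 to -1.45 at 4 weeks, -2.56 to -1.39 at 6 weeks and -1.66 to -0.996 for older minus young at 4 and 6 weeks. The other pathway probe sets numbered 9 to 11 up and 4 to 8 down at 3 days, 5 to 7 up and 6 to 8 down at 1 week, 5 to 7 up and 4 to 9 down at 2 weeks, 2 to 6 up and 0 to 1 down at 4 weeks, and 0 to 2 up and 0 to 1 down at 6 weeks. Without the older no-fracture array 4 were down-regulated at 3 days and 4 at 2 weeks.

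Over all probe sets the alternatives other than single arrays called 848 to 2070 at 3 days (as reported, 2062), 1 to 1179 at 1 week (1160), 18 to 1004 at 2 weeks (984), 0 to 357 at 4 weeks (303) and 0 to 322 at 6 weeks (205), the lowest with the methods' t-test. At an unadjusted p below 0.001 that test called 254, 43, 58, 17 and 8. The counts of 0 also arose in limma with only the 6 arrays compared, where 702 and 425 had an unadjusted p below 0.05, and without adult rats, where 576 and 654 did. Against 3 days, no filter gave 65 at 1 week (148) and 146 at 2 weeks (270). Between older and young rats after fracture the range was 0 to 42 (7), with 0 in limma under a floor of 200 (924 at an unadjusted p below 0.05), at 1 and 2 weeks 5 to 31 (24), at 4 and 6 weeks 16 to 161 (131), and for the departure from no fracture 112 to 281 (119). Equal array medians, which moved the median of all probe sets at 4 weeks to -0.10 (as reported, 0.04) and that of older minus young at 4 and 6 weeks to -0.15 (0.08), gave 176 up and 106 down at 4 weeks (236 and 67) and 118 and 80 at 6 weeks (149 and 56). They gave 383 and 782 at 4 weeks against 3 days (516 and 554). For older minus young they gave 14 and 28 after fracture (4 and 3), 6 and 8 at 1 and 2 weeks (17 and 7) and 47 and 114 at 4 and 6 weeks (88 and 43), and for older minus adult 33 and 131 (111 and 63). Single arrays left out moved the count for older against young after fracture to 457 (without older 3 days), 185 (without young 3 days) or 0 in limma (for example without young 6 weeks, 834 at an unadjusted p below 0.05). At 4 and 6 weeks that count ran between 1 (without the young or the older 6 weeks array) and 323 (without young 1 week), and at 1 and 2 weeks between 0 (for example without older 1 week, 301 at an unadjusted p below 0.05) and 151 (without young 2 weeks). For older against adult it ran between 0 (for example without young 4 weeks, 1208 at an unadjusted p below 0.05) and 640 (without older 3 days), and for adult against young up to 23 (without adult 3 days). Against no fracture the lowest counts were 89 at 4 weeks and 24 at 6 weeks, each without the older array of that time, and 587 at 2 weeks without the older 2 weeks array. Against 3 days they were 0 at 1 week (for example without young 1 week, 640 at an unadjusted p below 0.05), 30 at 2 weeks, 518 at 4 weeks and 967 at 6 weeks, these last 3 without adult 3 days. The causes of these changes were not tested.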
